A study of Sus scrofa with 23 samples.

Results

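The troponin isoforms were followed through the growth of pig muscle with every probe set whose single gene symbol in the platform annotation was TNNT1, TNNT2, TNNT3, TNNI1, TNNI2, TNNC1 or TNNC2. This gave 7 probe sets, 1 for each of the 7 genes, out of 24123 probe sets on the array and 6765 genes that had a probe set with 1 symbol. The samples were 23 Affymetrix arrays of total RNA from offspring of German Landrace gilts that had all received a gestational low protein diet. There were 5 samples at 94 dpc (days post conception, a fetal stage) and 6 each at 1, 28 and 188 dpn (days after birth). Every sample shared the diet, so no effect of diet could be tested, and the comparisons below are between ages. Offspring of 3 gilts were taken per stage and the labels do not tie a sample to its dam, so littermates may stand among the replicates and the p-values measure the spread between these samples.

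Troponin is the calcium switch of the thin filament in striated muscle. Its C subunit binds calcium, its I subunit holds back the interaction of actin with myosin, and its T subunit ties the complex to tropomyosin. Slow and fast fibres of adult skeletal muscle use separate genes for each subunit: TNNT1, TNNI1 and TNNC1 in slow fibres, and TNNT3, TNNI2 and TNNC2 in fast fibres. TNNC1 also serves the heart. TNNT2 encodes cardiac troponin T, which developing skeletal muscle also expresses before the adult forms take over. The 3 troponin T transcripts are alternatively spliced, and the array gives 1 level per probe set, so splice forms were not separated here.

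The labels call the tissue liver, while the series title names muscle. Signals of CKM, the muscle creatine kinase, averaged 42900 ± 3298 (SD, n = 5) in the fetal samples and 86740 ± 10650 (SD, n = 6) at 188 dpn. Those of ALB, the albumin gene of hepatocytes, averaged 385.2 ± 434.8 and 3640 ± 2878 in these groups. The 9 skeletal muscle markers with a named probe set, of 12 listed, had a median percentile of 99.1 to 99.9 within an array, against 23.3 to 92 for 11 hepatocyte markers. Summed over these 11, hepatocyte signals ranged from 11870 to 37740 at 94 dpc and from 2740 to 23580 at 188 dpn. The higher mean of ALB at 188 dpn thus does not describe the list. In 3 samples of 1 dpn, replicates 2, 4 and 5, the ratio of the 5' to the 3' control probe set of GAPDH was 0.0868 to 0.148, whereas it was 1.09 to 1.29 on the other 20 arrays. The same 3 had an EF1A control ratio of 0.101 to 0.125, against 0.458 to 1.08 on the others. The third control differed: actin ratios were 0.817 to 1.21 over all 6 samples of 1 dpn, near those of the fetal samples given below. Replicates 2, 4 and 5 of 1 dpn are called the low-ratio samples below, and calls that involve 1 dpn are given without them where that ends or adds a call. Control ratios also changed with age outside these 3: fetal samples had EF1A ratios of 0.908 to 1.08 and actin ratios of 0.82 to 1.1, against 0.458 to 0.638 and 1.29 to 1.42 in samples of 188 dpn. Their part in the differences between these ages was not tested.

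Signals are the deposited linear array values. Stages were compared with limma's moderated test, two-sided, on log2(signal + 16). P-values were adjusted by Benjamini-Hochberg across the 23999 probe sets that are not controls, and "called" means an adjusted p under 0.05. Differences are log2 differences of stage means with their standard error (SE), and fold changes are on the log2(signal + 16) scale, which understates changes of dim probe sets. Probes differ in brightness, so a difference in signal between probe sets is not read as a difference in the amount of transcript. Since the samples are bulk tissue, fewer cells of a type and less RNA per cell cannot be told apart.

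TNNT2, the cardiac and developmental troponin T (Entrez gene 100622450), was bright before birth and far dimmer afterwards. Its signals at 94 dpc were 2986, 2534, 2676, 4088 and 3890, which placed it at the 94.3 to 96.5 percentile of an array. At 1 dpn they ran from 5.163 to 173.7 with a median of 29.52. At 28 dpn they ran from 35.64 to 551.4 with a median of 270.7, and at 188 dpn from 21.38 to 217.7 with a median of 66.08. The percentiles were 4.6 to 55.7 at 1 dpn, 21.6 to 78.1 at 28 dpn and 16.6 to 62.3 at 188 dpn. All 5 fetal samples lay above all 18 later samples, and the 3 later stages overlapped one another. No detection calls were given, so the lowest of these signals cannot be said to be present or absent.

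Between 94 dpc and 1 dpn TNNT2 fell by 5.98 on the log2 scale (SE 0.60, 63.1-fold, limma adjusted p = 2.12e-07). By absolute log2 difference this was rank 1 among the 23999 probe sets tested, a rank that rests in part on dim signals of 1 dpn that cannot be said to lie above background. Of all probe sets, 0.192% were called and changed more than 10-fold in this comparison. The size depended on the low end of the scale: it was 109.4-fold with a pseudocount of 1 and 30.65-fold with a pseudocount of 64. The 3 low-ratio samples held the 3 lowest TNNT2 signals of 1 dpn, 5.163 to 16.67, against 42.38 to 173.7 in the other 3. Without them the fall was 32.3-fold (log2 difference -5.01) and rank 3.

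The order of the TNNT2 means was 94 dpc, 28 dpn, 188 dpn and 1 dpn. TNNT2 rose from 1 dpn to 28 dpn by 2.20 (SE 0.57, 4.605-fold, limma adjusted p = 0.00945). Without the low-ratio samples that difference was 1.24 with an adjusted p of 0.245, so the call rested on them. The step from 28 to 188 dpn was -1.54 (SE 0.57, adjusted p = 0.0781) and was not called. It was called without replicate 5 of 28 dpn (-1.98, adjusted p = 0.0163), the lowest sample of its stage at 35.64, or without replicate 2 of 188 dpn (-1.85, adjusted p = 0.0373), the highest of its stage at 217.7. The stages 188 and 1 dpn, neighbours in the order, differed by 0.66 (SE 0.57, adjusted p = 0.434), and without the low-ratio samples the sign turned, to -0.30. Against 94 dpc, TNNT2 was 13.7-fold lower at 28 dpn (adjusted p = 6.65e-05) and 39.85-fold lower at 188 dpn (adjusted p = 1.93e-07).

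TNNT2 is also the troponin T of heart, so heart markers were read beside it. Of 10 listed, 5 had a named probe set: TNNI3, NPPA, NPPB, RYR2 and GATA4. Summed over the 5, their signals ranged from 304.8 to 596.4 in the fetal samples, and from 259.8 to 1248, 205.9 to 666.9 and 380.7 to 743.8 in the 3 later groups in order of age, all overlapping. TNNI3, cardiac troponin I, had means of 268.1 ± 130.8 (SD, n = 5) at 94 dpc and 360.5 ± 267.1 (SD, n = 6) at 1 dpn. CASQ2, ACTC1 and MYL4, which heart muscle also expresses, were not on the heart list and were lower at 188 dpn than before birth, as given below. Between 94 dpc and 1 dpn MYL4 fell by 4.585 on the log2 scale, and CASQ2 (-1.28) and ACTC1 (0.51) were not called. The part of heart or smooth muscle tissue in the TNNT2 signal was not tested. Of 6 smooth muscle markers, ACTA2, smooth muscle actin, had means of 20460 ± 1655 (SD, n = 5) before birth and 14990 ± 3943 (SD, n = 6) a day after it. DES, desmin, which skeletal muscle also expresses, had means of 20070 ± 4279 and 25330 ± 7287. Their sum with the other 4 ranged from 41200 to 48920 and from 40900 to 51120. At 28 and 188 dpn ACTA2 had means of 11890 ± 1866 and 5180 ± 974.9 (SD, n = 6 each). Those of DES were 24100 ± 4280 and 31810 ± 2056, and the sums ranged from 34960 to 48920 and from 37980 to 41550.

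The 6 adult isoforms were among the brightest probe sets from the fetus on. They lay at the 98.3 percentile or above on every one of the 23 arrays. Each was already strongly expressed at 94 dpc, and each had its highest stage mean at 188 dpn.

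**Figure D1:**
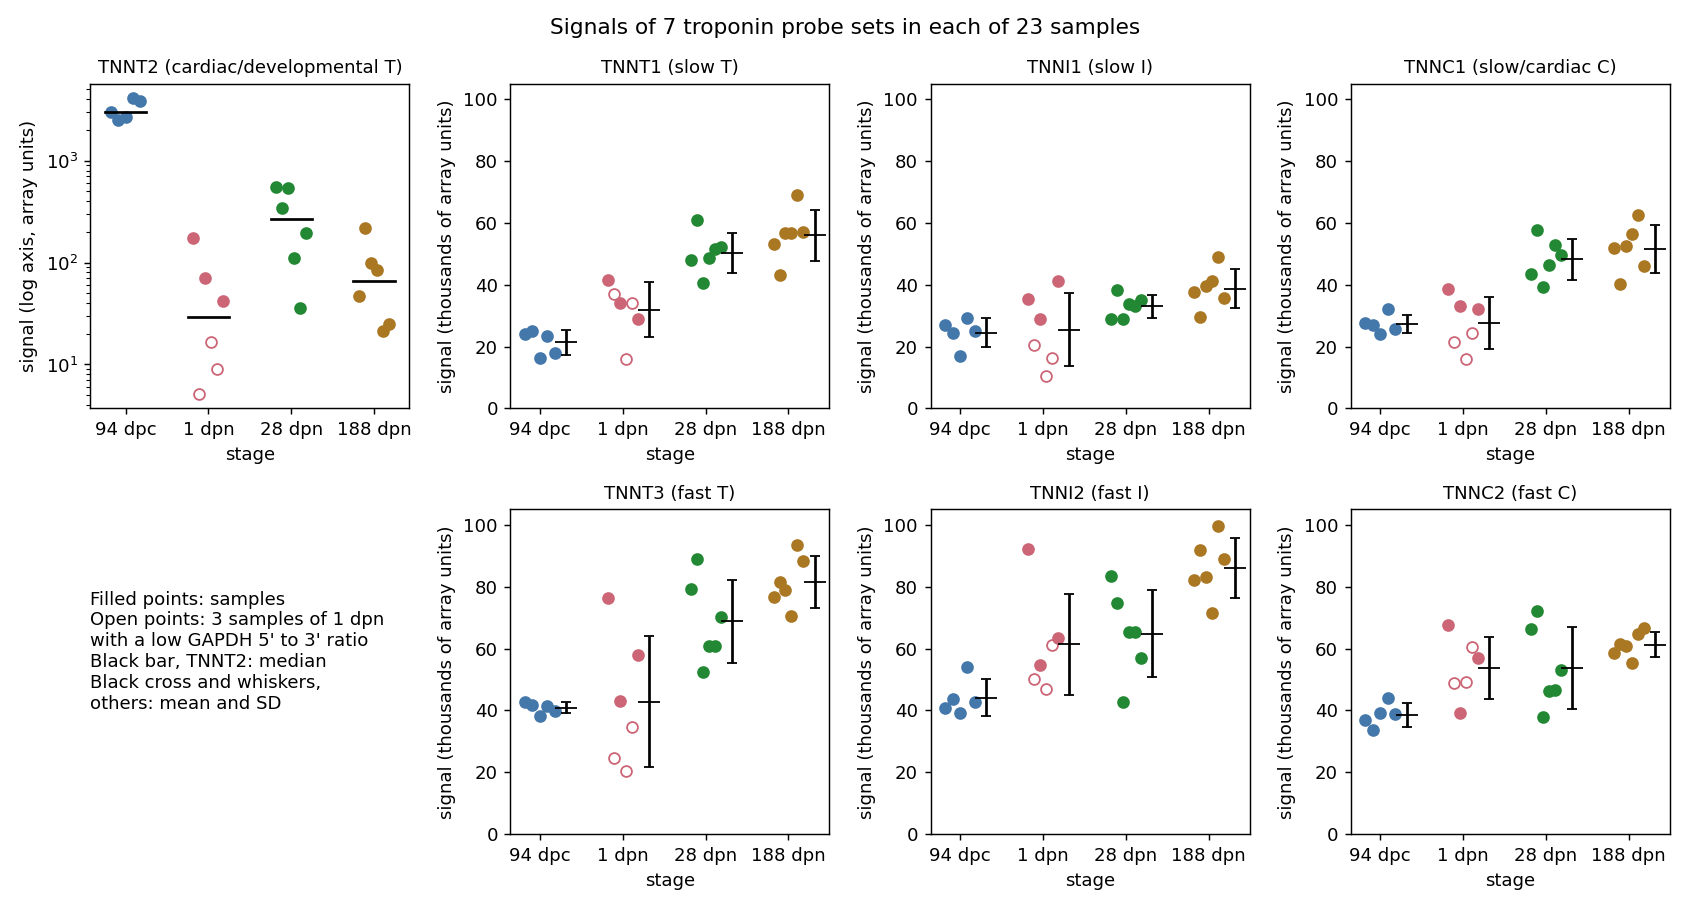
Signal of each troponin probe set in every sample, by stage; TNNT2 is on a log axis with a bar at the stage median, the others on a linear axis with the mean and SD. Open points are the 3 low-ratio samples of 1 dpn. All 5 fetal TNNT2 signals, 2534 to 4088, lie above every later one, and at 188 dpn every sample of the other 6 isoforms lies above every fetal sample.

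Among the slow isoforms, TNNT1, slow troponin T (Entrez gene 396579), had signals of 24210, 25060, 16220, 23420 and 17960 at 94 dpc. Its range was 16050 to 41640 (median 34170) at 1 dpn, 40690 to 60820 (median 49980) at 28 dpn and 43250 to 68920 (median 56780) at 188 dpn. The fetal samples lay below all samples of 28 and 188 dpn and overlapped 1 dpn through replicate 4, a low-ratio sample at 16050. From 94 dpc TNNT1 rose by 1.25 to 28 dpn (SE 0.21, 2.37-fold, limma adjusted p = 0.000122) and by 1.40 to 188 dpn (SE 0.21, 2.634-fold, adjusted p = 1.01e-05). The step from 94 dpc to 1 dpn, 0.54 (SE 0.21), was not called (adjusted p = 0.0601). It was called without replicate 4 of 1 dpn (adjusted p = 0.0037) and without all 3 low-ratio samples (0.71, adjusted p = 0.0114).

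TNNI1, slow troponin I (Entrez gene 396947), came closest to no difference among the stages, as the F test below shows. Its signals at 94 dpc were 27000, 24360, 16860, 29130 and 25200. At 1 dpn they ran from 10490 to 41160 (median 24660), at 28 dpn from 28830 to 38310 (median 33470), and at 188 dpn from 29520 to 48880 (median 38670). The 188 dpn samples did not overlap the fetal ones, yet the difference of 0.67 (SE 0.26, 1.59-fold) missed the threshold, with a limma adjusted p of 0.0505. It passed when any of replicates 1, 4, 5 or 6 of 1 dpn, or replicate 2 of 188 dpn, was left out (adjusted p = 0.018 to 0.0473), and without the low-ratio samples (adjusted p = 0.0029). Leaving out a sample of 1 dpn keeps the difference of 0.67 as it was. It changes the estimate of spread that all stages share and the adjustment over all probe sets. Between 1 and 188 dpn TNNI1 rose by 0.74 (SE 0.25, adjusted p = 0.029). That call was lost without the low-ratio samples (0.14, adjusted p = 0.67), and also without replicate 2, 4 or 5 of 1 dpn or replicate 4 or 5 of 188 dpn (adjusted p = 0.0519 to 0.0881).

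TNNC1, slow and cardiac troponin C (Entrez gene 100156435), had signals of 27730, 27140, 24160, 32060 and 25720 at 94 dpc. At 1 dpn the range was 15990 to 38510 (median 28380), at 28 dpn 39160 to 57830 (median 48030) and at 188 dpn 40160 to 62620 (median 52130). The samples of 94 dpc and 1 dpn overlapped, and all of them lay below all samples of 28 and 188 dpn. TNNC1 rose from 1 to 28 dpn by 0.85 (SE 0.19, 1.802-fold, limma adjusted p = 0.00295). Without the low-ratio samples this was 0.47 (adjusted p = 0.0773). Against 94 dpc, TNNC1 was 1.755-fold higher at 28 dpn (adjusted p = 0.00427) and 1.875-fold higher at 188 dpn (adjusted p = 0.000779).

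Among the fast isoforms, TNNT3, fast troponin T (Entrez gene 414906), was very even in the fetus, with signals of 42870, 41810, 38330, 41540 and 39950. At 1 dpn its samples were widely scattered, from 20430 to 76230 (median 38990). The range was 52340 to 88970 (median 65550) at 28 dpn and 70470 to 93500 (median 80160) at 188 dpn. Fetal samples lay below all samples of 28 and 188 dpn and within the range of 1 dpn. The 3 low-ratio samples, 20430 to 34800, lay below the other 3 of 1 dpn, 43190 to 76230. TNNT3 was 1.986-fold higher at 188 dpn than at 94 dpc (log2 difference 0.99, SE 0.25, limma adjusted p = 0.00292).

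The rise of TNNT3 from 94 dpc to 28 dpn, 0.73 (SE 0.25, adjusted p = 0.0375), was lost when any fetal sample or replicate 1, 2 or 6 of 28 dpn was left out (adjusted p = 0.0546 to 0.0832). Its rise from 1 to 28 dpn, 0.81 (SE 0.24, adjusted p = 0.0216), was lost without replicate 2 or 4 of 1 dpn or replicate 2 of 28 dpn (adjusted p = 0.0531 to 0.0627). Without the low-ratio samples it was 0.24 (adjusted p = 0.483). From 1 to 188 dpn it rose by 1.07 (SE 0.24, adjusted p = 0.0014), and by 0.50 (adjusted p = 0.0662) without them.

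TNNI2, fast troponin I (Entrez gene 606751), had signals of 40800, 43740, 39250, 54210 and 42720 at 94 dpc. At 1 dpn they ran from 46880 to 92110 (median 57910), at 28 dpn from 42880 to 83350 (median 65420), and at 188 dpn from 71390 to 99690 (median 86050). The fetal samples overlapped 1 and 28 dpn but not 188 dpn. TNNI2 was 1.954-fold higher at 188 dpn than at 94 dpc (log2 difference 0.97, SE 0.19, limma adjusted p = 0.000255). The step from 94 dpc to 1 dpn, 0.45 (SE 0.19), was not called (adjusted p = 0.0869), and was called without the low-ratio samples (0.64, adjusted p = 0.0337). Its difference between 28 dpn and 94 dpc, 0.53 (SE 0.19, adjusted p = 0.0443), stood close to the threshold. It was lost in 13 of the 23 fits that left out 1 sample (adjusted p = 0.0508 to 0.104): replicates 1, 2, 3 or 5 of 94 dpc, replicates 1, 2, 4, 5 or 6 of 28 dpn, or replicates 1, 2, 3 or 6 of 188 dpn. The rise from 1 to 188 dpn, 0.52 (SE 0.18, adjusted p = 0.0336), was lost without replicate 2, 3 or 4 of 1 dpn or replicate 2, 5 or 6 of 188 dpn (adjusted p = 0.0572 to 0.084), and without the low-ratio samples (0.32, adjusted p = 0.298).

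TNNC2, fast troponin C (Entrez gene 414905), had signals of 36850, 33570, 39340, 44180 and 38760 at 94 dpc. The range was 39150 to 67770 (median 53080) at 1 dpn, 37890 to 72140 (median 49780) at 28 dpn and 55290 to 66540 (median 61030) at 188 dpn. Only at 188 dpn did no sample overlap the fetal ones. TNNC2 was then 1.591-fold higher than at 94 dpc (log2 difference 0.67, SE 0.18, limma adjusted p = 0.0041). The 3 postnatal stages did not differ by a call: 188 less 1 dpn was 0.21 (SE 0.17, adjusted p = 0.404), with a 95% interval of -0.14 to 0.56. The step from 94 dpc to 1 dpn, 0.46 (SE 0.18, adjusted p = 0.0569), was called when replicate 3 of 1 dpn or replicate 2 or 3 of 28 dpn was left out (adjusted p = 0.0238 to 0.0476), and was 0.47 (adjusted p = 0.112) without the low-ratio samples. The difference between 28 dpn and 94 dpc, 0.45 (SE 0.18, adjusted p = 0.0694), was called without replicate 3 of 28 dpn (adjusted p = 0.03).

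Read by comparison, 6 of the 7 troponins were called between 94 dpc and 188 dpn, where 36.7% of all probe sets were. Of these 5 were higher, as were 13.3% of all probe sets, and TNNT2 was lower, as were 23.4%. From 94 dpc to 28 dpn 5 were called, where 23.6% of all probe sets were. TNNT1, TNNT3, TNNI2 and TNNC1 were higher (8.87% of all probe sets) and TNNT2 lower (14.7%). Between 94 dpc and 1 dpn only TNNT2 was called, 1 of 7, where 25.9% of all probe sets were called and 17.9% of all were called lower. A further 3, TNNT1, TNNI2 and TNNC2, had an unadjusted p under 0.05. The count was 3 without the low-ratio samples (TNNT2, TNNT1 and TNNI2), where 6007 of the 23999 probe sets were called. It was 4 with centred arrays, where 22.8% of the 6765 genes were called higher and 11.4% lower.

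Between 1 and 28 dpn 4 troponins were called, all higher (TNNT2, TNNT1, TNNT3 and TNNC1), where 17.2% of all probe sets were called and 10.1% were higher. Without the low-ratio samples limma called 0, where 13.4% of all probe sets were called. There 2, TNNT1 and TNNC1, had an unadjusted p under 0.05. Between 1 and 188 dpn 5 were called, all higher, where 29.2% of all probe sets were called and 13.6% were higher. Without the low-ratio samples 2 were called, TNNT1 and TNNC1, where 23.5% of all probe sets were called. Between 28 and 188 dpn limma called 0, where 13.8% of all probe sets were called, and 2 had an unadjusted p under 0.05, TNNT2 (0.013) and TNNI2 (0.025). Over the 4 stages the moderated F test called all 7, from an adjusted p of 1.2e-07 for TNNT2 to 0.049 for TNNI1, where 46.6% of all probe sets were called. After quantile normalization the F test called 5. The share of all probe sets is not given for that scaling, so the lower count is not read further.

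Counted by samples that do not overlap, all 7 troponins separated 94 dpc from 188 dpn, as did 29.2% of all probe sets. The fetal and 28 dpn samples were separated by 4 (TNNT2, TNNT1, TNNT3 and TNNC1; all probe sets 20.6%), and the fetal and 1 dpn samples by 1, TNNT2 (all probe sets 13.9%). With the low-ratio samples left out, a choice made after the data were seen, TNNT2, TNNT1, TNNT3, TNNI2 and TNNC1 separated these 2 stages, 5 in all, as did 26.7% of all probe sets. Among the later stages TNNC1 separated 1 from 28 dpn (all probe sets 6.83%), TNNT1 and TNNC1 separated 1 from 188 dpn (13.3%), and 0 separated 28 from 188 dpn (10.9%). The same members separated 1 from 28 dpn and 1 from 188 dpn without the low-ratio samples, where 15.2% and 21.6% of all probe sets did.

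**Figure D2:**
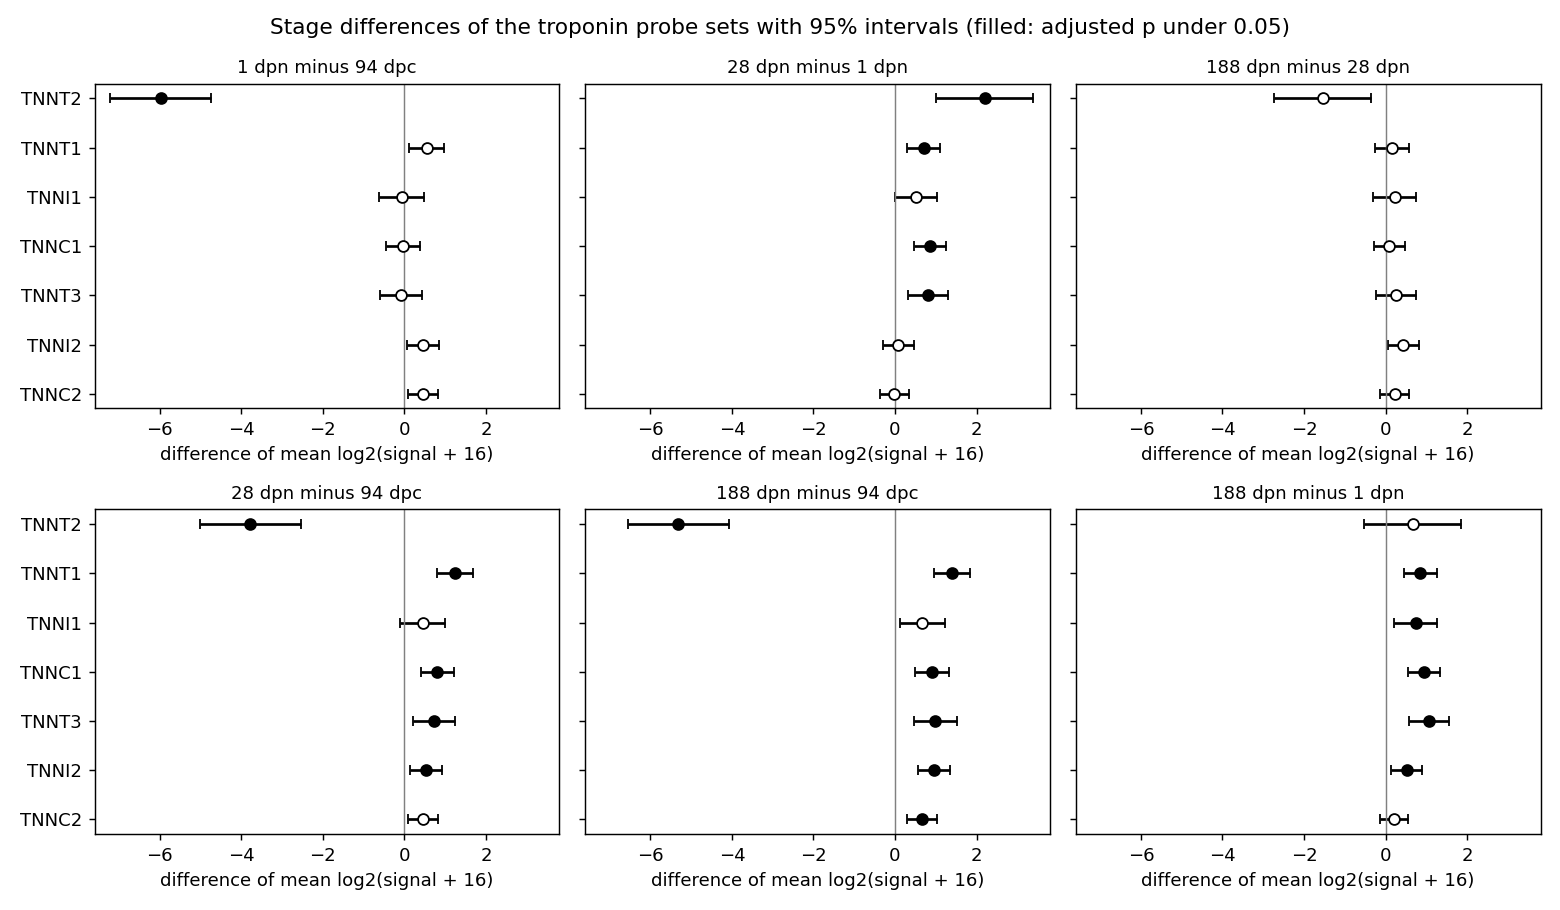
Difference of mean log2(signal + 16) between stages for each troponin probe set, in 6 panels for the 6 pairs of stages, with 95% intervals; filled points have a limma adjusted p under 0.05. TNNT2 lies at -5.98 between 94 dpc and 1 dpn, far from the other 6, which lie between -0.08 and 0.54 there.

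The scaling of the arrays bears on these small rises. Quantile normalization forces the brightest values of all arrays to be alike, and under it TNNT3, TNNI2 and TNNC2 lost their calls between 94 dpc and 188 dpn (0.30, 0.22 and 0.14, adjusted p = 0.287, 0.252 and 0.424). TNNT3 and TNNI2 lost theirs between 94 dpc and 28 dpn (0.30 and 0.04, adjusted p = 0.356 and 0.884), and TNNI2 its call between 1 and 188 dpn (0.20, adjusted p = 0.301). TNNT1 and TNNC1 kept their calls between 94 dpc and 188 dpn. With each array centred on its median, 4 troponins were called between 94 dpc and 1 dpn: TNNT2, TNNT1 (0.82), TNNI2 (0.72) and TNNC2 (0.74). The signs of TNNT3, TNNI1 and TNNC1 in that comparison, -0.08, -0.07 and -0.04 as deposited, turned to 0.19, 0.20 and 0.23. After quantile normalization they were -0.46, -0.53 and -0.44 (adjusted p = 0.119, 0.0872 and 0.0504), and without the low-ratio samples 0.49, 0.53 and 0.34. No direction can thus be read for these 3 between 94 dpc and 1 dpn. Of all probe sets called between 94 dpc and 1 dpn, 31.2% were higher with the values as they stand, 47.3% with quantile normalization and 59.4% with centring, and between 94 dpc and 188 dpn 36.3%, 48.8% and 56.9%.

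Differences between isoforms on the same array are free of a single factor that scales that array, apart from the constant added before the log. They are not free of a scaling that acts unequally on bright and dim signals. Their absolute size depends on the probes, so only their change between stages is read. TNNT2 less TNNT3, the developmental against the fast troponin T, had a mean of -3.68 ± 0.31 (SD, n = 5) at 94 dpc, with a range of -4.04 to -3.34. It was -9.58 ± 0.72 (SD, n = 6) at 1 dpn (-9.95 to -8.65 in the 3 samples that are not low-ratio), -8.18 ± 1.30 (SD, n = 6) at 28 dpn and -9.99 ± 1.09 (SD, n = 6) at 188 dpn. The highest of the 18 postnatal values was -6.55, so the fetal samples stood clear of all others.

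The slow-to-fast differences moved far less. TNNT1 less TNNT3 ran from -1.24 to -0.74 at 94 dpc and from -0.72 to -0.25 at 28 dpn without overlap. At 188 dpn it ran from -0.91 to -0.31, which overlapped the fetal range. TNNI1 less TNNI2 ran from -1.22 to -0.60 in the fetus and from -1.64 to -0.79 at 188 dpn, and TNNC1 less TNNC2 from -0.70 to -0.31 and from -0.61 to 0.03. Slow and fast forms of the I and C subunits thus kept overlapping differences from the fetus to 188 dpn. At 1 dpn the low-ratio samples widened these ranges: TNNC1 less TNNC2 was -1.62 to -1.18 in them and -0.82 to -0.24 in the other 3.

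**Figure D3:**
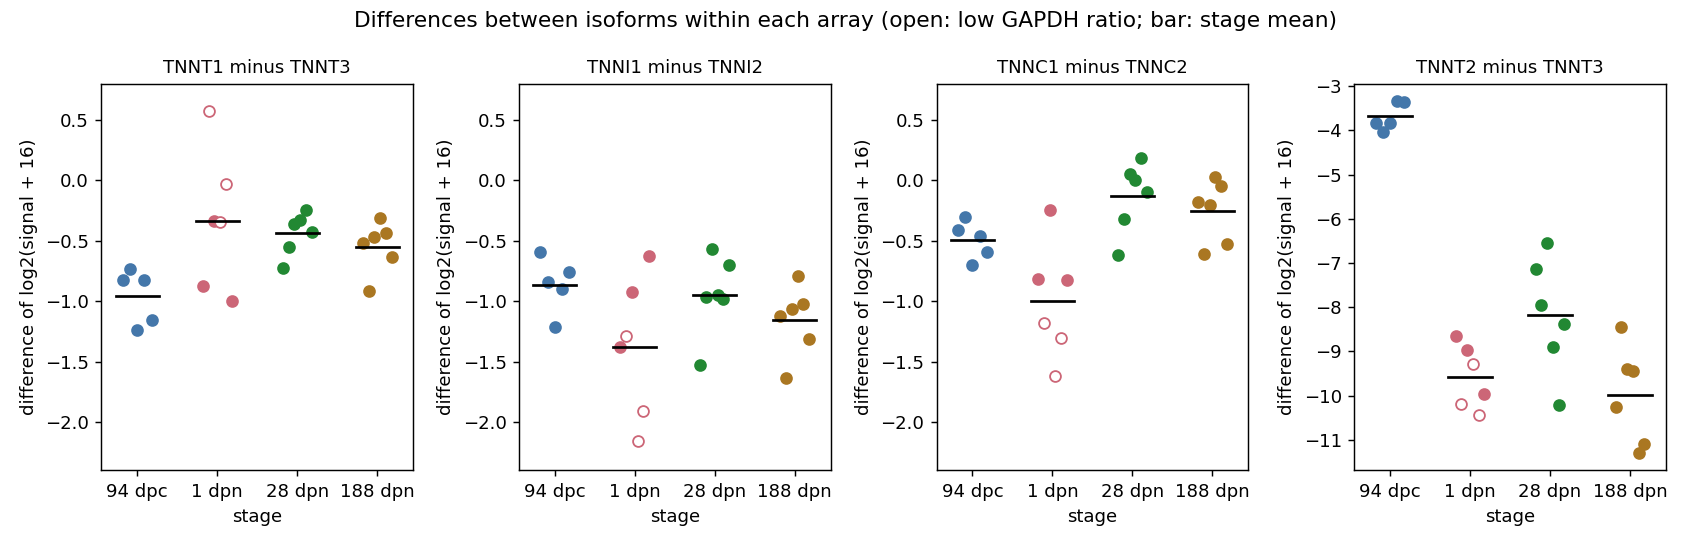
Difference of log2(signal + 16) between paired isoforms on the same array, by stage, with the stage mean as a bar and the low-ratio samples of 1 dpn open; the right panel has its own scale. Only TNNT2 less TNNT3 sets the 5 fetal samples, -4.04 to -3.34, apart from every later sample.

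Samples of one stage also differed among themselves, and the slow isoforms tended to move together under each scaling run. For the fast isoforms this depended on the samples and the scaling. As a description, deviations from the stage means were correlated over samples, which share the scaling of their array. Among the slow isoforms Pearson's r was 0.70 to 0.90 over 3 pairs and 23 samples, and among the fast isoforms 0.55 to 0.77 over 3 pairs. Between slow and fast isoforms it was 0.18 to 0.80 over 9 pairs, and between TNNT2 and the other 6 it was -0.03 to 0.46. The fast TNNT3 had r of 0.80 with TNNC1 and 0.78 with TNNI1, against 0.77 with TNNI2 and 0.55 with TNNC2.

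Over the 20 samples that are not low-ratio, Pearson's r was 0.65 to 0.83 within the slow isoforms, 0.82 to 0.91 within the fast, 0.29 to 0.53 between them, and -0.32 to 0.22 for TNNT2. The fast group did not survive quantile normalization, under which its 3 correlations were -0.23 to -0.01 (n = 20), while the slow group was at 0.43 to 0.77. With centred arrays the fast group was at 0.75 to 0.87 and the slow at 0.68 to 0.82.

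**Figure D4:**
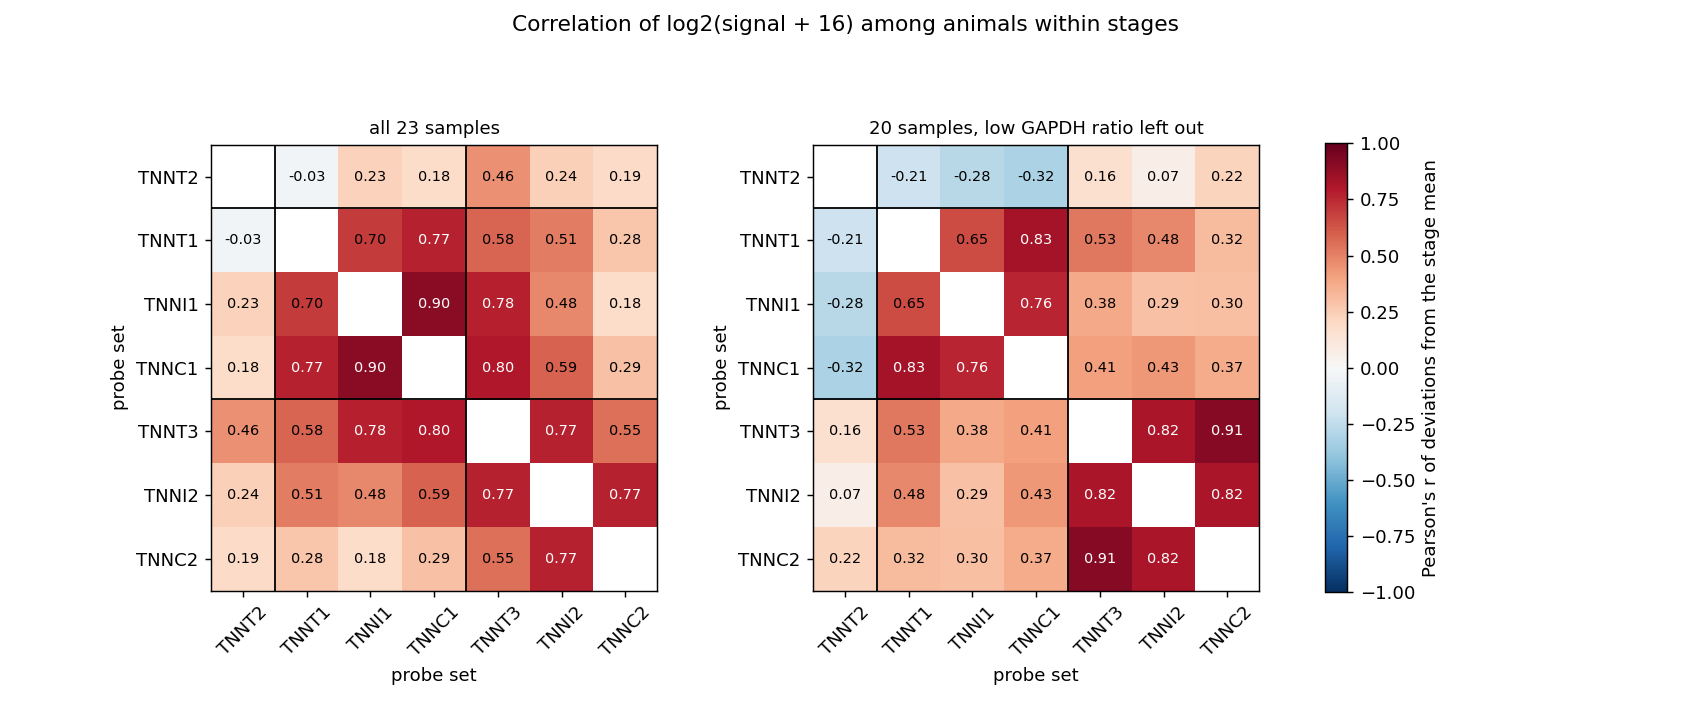
Pearson's r between troponin probe sets, of deviations of log2(signal + 16) from the stage mean, over all 23 samples (left) and over the 20 without the low-ratio samples (right); lines part TNNT2, the slow and the fast isoforms. On the right, r within the fast isoforms is 0.82 to 0.91 and between slow and fast isoforms 0.29 to 0.53.

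The other genes with the most similar pattern were ranked by Pearson's r of log2(signal + 16) over the 23 samples among 4955 genes brighter than the array median. Closest to TNNT2 was MYL4, the embryonic and atrial essential myosin light chain (r = 0.93, and 0.58 within stages), then CDO1, cysteine dioxygenase (r = 0.919), and PLK2, a polo-like kinase (r = 0.914). The MYL4 signal averaged 5673 ± 1840 (SD, n = 5) before birth, and 224.8 ± 100.2, 419.5 ± 104.2 and 243.7 ± 51.23 (SD, n = 6 each) at the 3 later ages in order. Like TNNT2 it was highest before birth and second highest at 28 dpn, but it was picked for its likeness in these samples, so the shared order is no separate result. From 1 to 28 dpn MYL4 rose by 0.90 (limma adjusted p = 0.015), and by 0.58 (adjusted p = 0.23) without the low-ratio samples. Neither gene was called between 1 and 188 dpn (MYL4 0.17, limma adjusted p = 0.68). The gene most opposite to TNNT2 was PPP6C, a protein phosphatase subunit (r = -0.92).

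Of the slow isoforms, TNNT1 was closest to MYH7, the slow myosin heavy chain (r = 0.943), TTN, titin (r = 0.927), and INO80C (r = 0.924), and most opposite to PTBP1, a splicing repressor (r = -0.919). MYH7 rose from a mean of 25080 ± 3100 (SD, n = 5) at 94 dpc to 61000 ± 6608 (SD, n = 6) at 188 dpn. TNNC1 was closest to CMBL (r = 0.934), UCHL3 (r = 0.932) and INO80C (r = 0.929), and most opposite to BANP (r = -0.916). TNNI1 was closest to PDCD2L (r = 0.915), FXYD7 (r = 0.904) and FIS1 (r = 0.899), and most opposite to ZNF281 (r = -0.893).

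Of the fast isoforms, TNNT3 was closest to TPM1, the alpha-tropomyosin (r = 0.974, and 0.96 within stages), PGAM2, the muscle phosphoglycerate mutase (r = 0.945), and PARK7 (r = 0.939), and most opposite to THADA (r = -0.944). TNNI2 was closest to MYL1, a fast myosin light chain (r = 0.944), UBB, a polyubiquitin gene (r = 0.936), and SLN, sarcolipin (r = 0.932), and most opposite to UBR7 (r = -0.888). TNNC2 was closest to GAPDH, the glycolytic enzyme (r = 0.969, and 0.97 within stages), MYLPF, the fast regulatory light chain (r = 0.966), and UBB (r = 0.94), and most opposite to MAPRE1 (r = -0.836). For TNNT3 and TNNC2 the r with the closest gene within stages was near that over all samples, whereas for TNNT2 it was lower within stages. All of these values share the arrays' scaling. For the same genes without the low-ratio samples (n = 20, tried after the data were seen), r with the 3 similar genes was 0.769 to 0.834 for TNNI1 and 0.901 to 0.985 for the other 6 troponins.

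Several of the T and I genes lie close together on the genome. In the RefSeq gene table of Sscrofa11.1, used here for neighbours only, TNNI2 and TNNT3 have 2 genes between them (LSP1 and LOC110259216), TNNT2 and TNNI1 have 1 (LAD1), and TNNT1 and TNNI3 have 0. TNNC1 and TNNC2 lie on chromosomes with no other member. The fast pair TNNI2 and TNNT3 both rose between 94 dpc and 188 dpn, 1.954-fold and 1.986-fold with the values as deposited. The neighbours TNNT2 and TNNI1 parted: TNNT2 was 39.85-fold lower and TNNI1 was at 1.59-fold higher, short of a call.

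The genes that troponin works with were read from lists, each described by counts beside those of all 6765 genes. From 94 dpc to 188 dpn 19.5% of all genes were called higher and 27.4% lower, with a median log2 difference of -0.08. Of 16 measured thin filament partners, out of 20 listed, 9 were higher, 2 lower and 5 not called, with a median of 0.92. TMOD4, a tropomodulin that caps the filament's pointed end, rose by 3.03 (SE 0.35, limma adjusted p = 2.7e-07). XIRP2, an actin-binding Xin repeat protein, rose by 2.77 (SE 0.24, adjusted p = 3.3e-09), and NEB, nebulin, which spans the filament, by 2.06 (SE 0.18, adjusted p = 4.5e-09). The 2 that fell were ACTC1, the cardiac and developmental actin (-5.25, SE 0.24, adjusted p = 4.8e-13), and TPM3, the slow tropomyosin gene (-1.83, SE 0.23, adjusted p = 6.9e-07).

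ACTC1, TPM1 and TPM3 stand in 2 lists each. Of 9 measured slow-fibre genes, out of 14 listed, 5 were higher, 2 lower and 2 not called, with a median of 0.85. MYL3, the slow essential light chain, rose by 2.23 (SE 0.25, limma adjusted p = 1.9e-07), MYH7 by 1.28 (SE 0.20, adjusted p = 1.4e-05) and PLN, phospholamban, by 1.06 (SE 0.31, adjusted p = 0.0081). CASQ2, the cardiac and slow calsequestrin, fell by 4.41 on the log2 scale (SE 0.53, adjusted p = 5.1e-07). All 7 measured fast-fibre genes, out of 15 listed, were higher, with a median of 1.62. MYH2, a fast myosin heavy chain, rose by 3.88 (SE 0.31, adjusted p = 9.7e-10), ATP2A1, the fast calcium pump, by 3.87 (SE 0.17, adjusted p = 2e-13), and PYGM, muscle glycogen phosphorylase, by 2.85 (SE 0.26, adjusted p = 8.4e-09). After quantile normalization, where 23.3% of all genes were higher and 22.7% lower, 7 thin filament partners, 4 slow-fibre and 4 fast-fibre genes were higher and 3, 3 and 0 lower, and MYLPF turned from 0.73 to -0.01. With centred arrays, where 28.9% of all genes were higher and 19.4% lower, 10, 5 and 7 were higher and 2, 2 and 0 lower.

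Of 12 listed embryonic and neonatal muscle genes, 4 were measured. All 4 were lower at 188 dpn, with a median of -3.40, and were so under both other scalings. Besides ACTC1 these were MYL4 (-4.42, SE 0.26, limma adjusted p = 1.4e-11), CHRNA1, the muscle acetylcholine receptor alpha subunit (-2.39, SE 0.43, adjusted p = 0.0001), and NCAM1, a cell adhesion molecule of immature fibres (-1.55, SE 0.24, adjusted p = 1.5e-05). They differed in time. MYL4 fell by 4.58 on the log2 scale between 94 dpc and 1 dpn (adjusted p = 7.4e-11), as TNNT2 fell by 5.98, while ACTC1 stood at 0.51 (adjusted p = 0.13). The same 3 of the 4 genes, MYL4, CHRNA1 and NCAM1, were called lower there with and without the low-ratio samples, where 19.4% and 18.7% of all genes were. ACTC1 fell by 5.00 on the log2 scale between 28 and 188 dpn (SE 0.23, adjusted p = 1.9e-12), where TNNT2 was at -1.54 and MYL4 at -0.73 (adjusted p = 0.055), neither called. TNNT2 and MYL4 thus fell mainly between 94 dpc and 1 dpn, and ACTC1 mainly between 28 and 188 dpn.

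**Figure D5:**
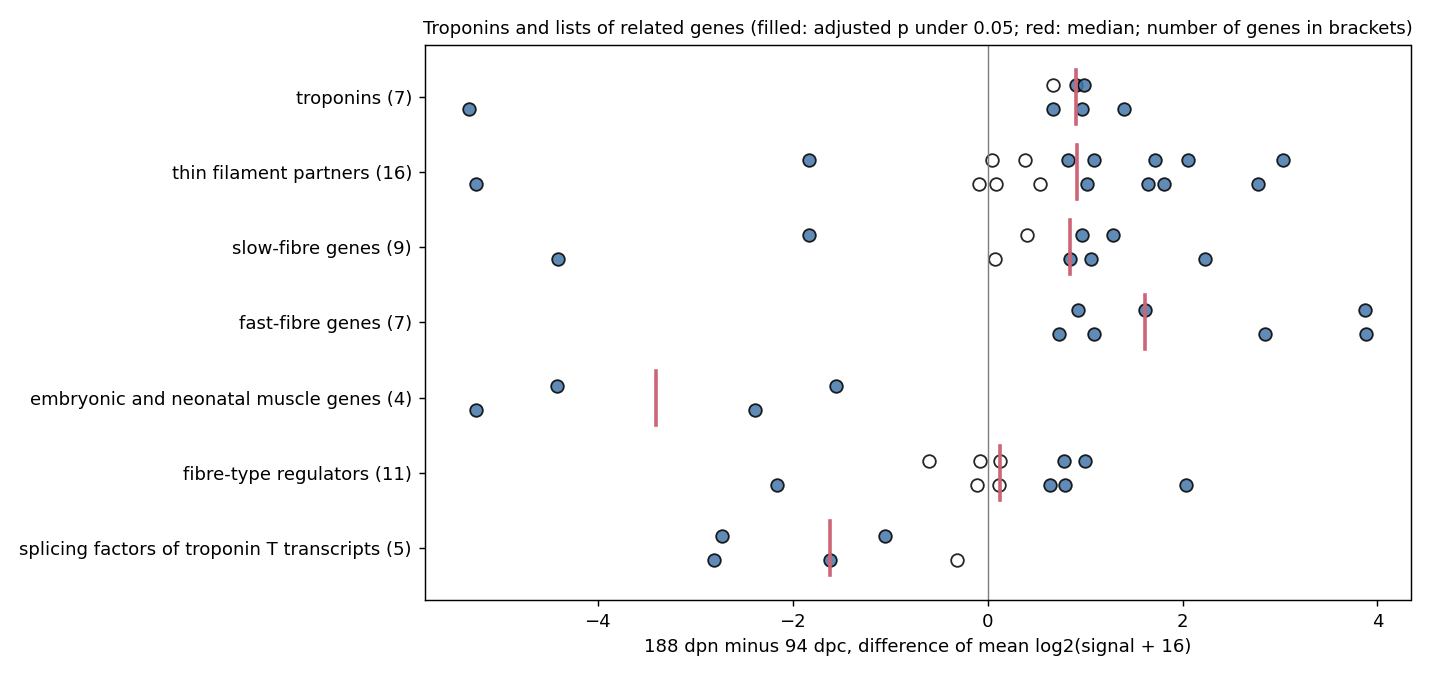
Difference of mean log2(signal + 16) between 188 dpn and 94 dpc for the 7 troponins and for the measured genes of 6 lists, 1 point per gene, filled at a limma adjusted p under 0.05, with the median as a red bar. Among the troponins TNNT2 lies at -5.32, near ACTC1 at -5.25 and MYL4 at -4.42, and all 7 fast-fibre genes lie above 0.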

How the data were processed

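RNA preparation used TRI Reagent, DNaseI and RNeasy columns before labelling with biotin, per the labels' protocols. The deposited values are array intensities on a linear scale, with a single signal for each probe set in a sample. The submitters' processing notes list GCOS 1.1.1 but not what it did. How probes were summarised, how background was corrected and whether calls of detection were made: not given in the sources used here. The 2% trimmed mean was 500.1 to 500.2 in all 23 samples, so values were taken as scaled, and a broad shift on 1 array moves all its other values. Median signals were 120.8 to 168.8. The precision is limited by how many arrays there are.

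Without further normalization, log2(signal + 16) was fitted with 1 mean per stage over all samples by limma 3.58.1 (lmFit, eBayes) in R 4.3.3, leaving out 124 control probe sets. Other scalings, pseudocounts, filters, samples and models of spread, and each sample left out, were tried. Replicate numbers follow accession order and pair nothing. The code was tested on simulated data. Figures used Python 3.11.15, pandas 2.3.3 and matplotlib 3.10.9.

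Named were the 7 troponins; for each, the 3 most similar genes and the least similar; CKM and ALB; and, per list and comparison, up to 3 called genes with the largest change in each direction. The members and lists were chosen with earlier results of these data known. Names come from the platform annotation, which gives 10069 probe sets 1 symbol, 198 several and 13732 none.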

Additional observations from a re-analysis of the deposited data

How the results depend on the processing

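The fall of TNNT2 after 94 dpc, in all 3 comparisons with it, kept its direction and call under every alternative run. Over 42 troponin differences and 1386 alternatives, 1253 kept direction and side of the threshold, 60 lost the call, 45 gained it and 28 changed sign. The number of troponins called was 1 between 94 dpc and 1 dpn, and it was 4 with centred arrays, with only probe sets above the median, or with eBayes trend and robust options. It was 3 with a pseudocount of 64, without the low-ratio samples, or with the GAPDH ratio as a covariate. Between 28 and 188 dpn it was 0, and 1 under the same settings other than the removal of the low-ratio samples. Quantile normalization gave 3 in place of 5 (94 dpc to 28 dpn) and 3 in place of 6 (94 dpc to 188 dpn). Of the 23999 probe sets, 5143 and 8562 were then called, against 5658 and 8814 in the main analysis. Between 1 and 28 dpn it was 4 in the main analysis, 2 with only those stages fitted (2453 of all probe sets, against 4121), and 0 by limma without the low-ratio samples or with the covariate (in each, 2 had an unadjusted p under 0.05). Between 1 and 188 dpn it was 5, and 3, 2 and 2 under those settings. With 1 sample left out the counts ran from 1 to 2 (94 dpc to 1 dpn), 3 to 4 (1 to 28 dpn), 0 to 1 (28 to 188 dpn), 3 to 6 (94 dpc to 28 dpn), 6 to 7 (94 dpc to 188 dpn) and 3 to 5 (1 to 188 dpn). Among all probe sets, the numbers called in the first 3 of these ran from 5139 to 6250, 3376 to 4719 and 2793 to 3645. In the last 3 they ran from 4713 to 6010, 8034 to 9089 and 6309 to 7257. Shares of all probe sets are not given for the pseudocount of 64, the covariate, probe sets above the median, or the trend and robust options. They are also not given for the fit of 1 and 188 dpn only. The troponin counts of these settings are therefore not set against a share, and the causes were not tested.

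Signs changed only for differences that were not called, in the settings named here. Between 94 dpc and 1 dpn TNNT3, TNNI1 and TNNC1 were 0.194, 0.203 and 0.234 with centred arrays, 0.493, 0.527 and 0.341 without the low-ratio samples, and 0.521, 0.513 and 0.351 with the covariate. With 1 sample left out they ran from -0.275 to 0.105, -0.238 to 0.156 and -0.146 to 0.107. Between 1 and 28 dpn TNNI1 and TNNI2, at 0.52 and 0.08, were -0.082 and -0.109 without the low-ratio samples and -0.076 and -0.131 with the covariate, and TNNC2 ran from -0.106 to 0.080 with 1 sample left out. The difference of TNNT2 between 1 and 188 dpn was -0.303 and -0.330. TNNT2 less TNNT3 at 1 dpn was -10.38 with a pseudocount of 1 and -8.52 with 64. At 5.163 to 551.4, postnatal TNNT2 signals are where the constant added before the log matters most. No paired analysis was possible because the labels give no replicate numbers that the stages share.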

Other observations

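Factors known to act on fibre type or on the splicing of troponin T transcripts were read in the same way. Of 18 listed fibre-type regulators, 11 were measured. Of these, 5 were higher, 1 lower and 5 not called between 94 dpc and 188 dpn, with a median log2 difference of 0.12. Of all genes, 19.5% were higher and 27.4% lower. MYF6, a myogenic factor of mature fibres, rose by 2.03 (SE 0.35, limma adjusted p = 5e-05), TEAD1, which binds MCAT elements of muscle promoters, by 0.99 (SE 0.28, adjusted p = 0.0075), and MEF2A by 0.80 (SE 0.18, adjusted p = 0.00081). MYOD1, a myogenic factor of early muscle, fell by 2.16 on the log2 scale (SE 0.28, adjusted p = 1.6e-06).

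Of 10 listed splicing factors, 5 were measured. Over the same interval 4 of them were lower and 1, QKI, not called (-0.31, limma adjusted p = 0.16). Their median was -1.62, and 27.4% of all genes were lower. RBFOX2 fell by 2.81 on the log2 scale (SE 0.17, limma adjusted p = 2.7e-11), MBNL3 fell by 2.73 (SE 0.30, adjusted p = 1.6e-07) and PTBP1 fell by 1.62 (SE 0.19, adjusted p = 3.1e-07). PTBP1, the gene most opposite to TNNT1, had means of 2308 ± 117.7 (SD, n = 5) at 94 dpc and 743.7 ± 73.34 (SD, n = 6) at 188 dpn. Whether the splice forms of the troponin T transcripts changed was not measured by these probe sets.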
